A study of Mus musculus with 24 samples.

Results

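The genes described here are 10 markers of the endothelium of the kidney, read from sequenced RNA of the right kidney of each of 24 mice. They were taken by symbol, as the rows of the count table for Tek, Tie1, Kdr, Flt1, Emcn, Plvap, Ehd3, Sox17, Cdh5 and Pecam1, which are 10 of 54532 genes. The list was drawn up with earlier results of these data known. All 10 passed the limit on low expression, as did 22570 genes in all. Every mouse was labelled C57BL/6 (C57BL/6 J in the study's methods), was 18 days old, and had the hypomorphic RC allele of Pkd1 opposite a floxed Pkd1 allele. In RC/+ mice, which the labels call controls, no Cre was present. RC/- mice, labelled cystic, also carried KspCre, a Cre transgene active in tubule epithelium and not in endothelium, which inactivates the floxed allele there, so that Cre and the cystic genotype cannot be told apart. In the edited lines D18 (founder 3) and D53 (founder 2), each descended from 1 founder, the RC allele lacked the miR-17 binding motif of its 3′ UTR. There were 3 mice in each of RC/+, RC/+ D18 and RC/+ D53, and 5 in each of RC/-, RC/- D18 and RC/- D53.

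As background, blood vessels of the kidney include the fenestrated capillaries of the glomerulus, the fenestrated peritubular capillaries around the tubules, and larger arteries and veins. Their lining cells respond to VEGF, made largely by podocytes and tubule cells, through the receptors Kdr and Flt1, and to angiopoietins through Tek, which pairs with the related receptor Tie1. Loss of capillaries between the cysts is a known feature of polycystic kidneys.

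Libraries held 20.4 to 30.8 M counts in total, and a single endothelial gene had 753 to 13361 counts in a library. Pkd1 itself was at 49.9 to 51.5 CPM in RC/+ and 38.4 to 71.4 CPM over the other 5 groups, a sum over both alleles and all cells that does not check the labels. Podocyte and proximal tubule markers were abundant in every library, as in kidney. Sex, read from Xist and Ddx3y, gave 14 female and 10 male libraries, with each sex in every group. Libraries 20 to 27, which are 3 of the 5 RC/- D18 kidneys (replicates 20 to 22) and all 5 RC/- D53 kidneys, stood apart through skeletal muscle transcripts. The summed level of 6 such genes was 147 to 194 CPM (counts scaled to the total of the library, per M) in those 8 libraries and 5.27 to 9.36 CPM in the other 16. No RC/+ or unedited RC/- library is among them, so fits of the comparisons of RC/- D18 were repeated without them. Those of RC/- D53, which has no other library, were repeated with their membership as a covariate. RC/- D18 is the only group with libraries of both kinds, so it alone sets that covariate. Kidneys were frozen without a perfusion step being stated, and lower values in bulk RNA can come from fewer endothelial cells or from less RNA per cell, and these cannot be told apart.

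Levels between genes were compared per kilobase of exon (RPKM, which is CPM divided by exon length) in the RC/+ kidneys. Plvap, the protein of the diaphragms that span capillary fenestrae, was the most abundant at 229 ± 42.9 RPKM (SD, n = 3). Pecam1 at 23.999 ± 4.49, Tie1 at 23.4 ± 3.59, Emcn at 22.8 ± 2.07, Cdh5 at 22.4 ± 4.18 and Tek at 19.5 ± 3.05 RPKM followed in that order, and each of these overlapped its neighbour over the 3 kidneys. Ehd3 at 9.96 ± 2.54, Sox17 at 9.57 ± 1.14 and Kdr at 8.64 ± 1.36 RPKM formed the next step, also with overlapping neighbours. Flt1 was the lowest at 4.87 ± 0.463 RPKM. The steps from Plvap to Pecam1, from Tek to Ehd3 and from Kdr to Flt1 were those without overlap. All 10 transcripts were thus well detected in these kidneys.

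Promoter sequences were available for 6 of the 10 genes (Kdr, Flt1, Emcn, Ehd3, Tie1 and Tek), from RefSeq on GRCm38.p6, as windows of 250 bases before and 50 after the start. They are shown for Tek, the angiopoietin receptor, for Tie1, the related receptor that it pairs with, and for Emcn. These were picked because Tek and Emcn moved most in the edited D18 kidneys while Tie1 moved less. Capitals mark the core of ETS factor sites, GGAA or its reverse complement TTCC.
Tek, chr4:94739039-94739338, plus strand: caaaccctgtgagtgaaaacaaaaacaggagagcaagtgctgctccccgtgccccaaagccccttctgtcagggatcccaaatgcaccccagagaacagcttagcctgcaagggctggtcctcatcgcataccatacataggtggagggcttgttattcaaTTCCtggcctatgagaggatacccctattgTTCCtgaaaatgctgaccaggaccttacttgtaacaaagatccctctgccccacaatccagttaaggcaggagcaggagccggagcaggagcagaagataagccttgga
Tie1, chr4:118489800-118490099, minus strand: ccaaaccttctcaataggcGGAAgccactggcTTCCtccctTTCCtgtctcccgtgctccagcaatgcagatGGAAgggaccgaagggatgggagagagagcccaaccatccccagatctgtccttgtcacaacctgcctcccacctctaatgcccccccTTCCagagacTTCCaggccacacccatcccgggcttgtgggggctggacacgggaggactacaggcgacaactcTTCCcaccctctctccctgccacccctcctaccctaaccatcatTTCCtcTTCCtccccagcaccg
Emcn, chr3:137340828-137341127, plus strand: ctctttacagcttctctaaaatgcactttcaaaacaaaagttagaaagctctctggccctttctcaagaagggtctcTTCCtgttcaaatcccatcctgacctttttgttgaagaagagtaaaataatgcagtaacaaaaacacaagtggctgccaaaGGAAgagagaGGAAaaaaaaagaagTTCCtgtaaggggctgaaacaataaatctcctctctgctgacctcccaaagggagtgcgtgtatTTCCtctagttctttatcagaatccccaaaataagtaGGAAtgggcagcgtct
Tie1 held 9 such cores, and 1.59% of all 32851 promoters of this length hold at least as many. Emcn held 6 (15.7% of promoters), Kdr 5 (28.6%), Flt1 and Ehd3 4 each (46.3%) and Tek 2 (84.6%). The core is common, since 96% of promoters hold at least 1 and the median is 3. The SOX core ACAAT or ATTGT, held by 31% of promoters, occurred 2 times in Tek (7.98% of promoters hold at least as many) and 1 time in Emcn. The GATA core GATAA or TTATC, held by 25.4%, occurred 1 time in each of Tek and Emcn. Kdr, Flt1, Ehd3 and Tie1 held 0 of the SOX and 0 of the GATA cores. Motifs were counted separately, so a base can belong to matches of more than 1 motif, and the counts describe letters in a window rather than binding. The genes shown were chosen by their fold changes in these data, and a link between motif counts and fold changes was not tested.

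RC/- set against RC/+ kidneys shows what differs with the cystic genotype when the motif is intact. Of the 10 endothelial genes, 7 fell and 0 rose at an adjusted p below 0.05, where 12.2% of all 22570 genes tested were lower and 25.5% higher. The decreases were led by Tek, the angiopoietin receptor, at 0.613 times its RC/+ level, and by the capillary genes Ehd3 (0.656 times), Emcn (0.667 times) and Plvap (0.673 times). Kdr, Sox17 and Tie1 fell less, to 0.784, 0.793 and 0.809 times. Flt1 missed the threshold, and the junction genes Cdh5 and Pecam1 were at 1.05 and 1.002 times their RC/+ levels. The median log2 fold change of the 10 genes was -0.34, beside 0.14 over all genes. With TMM factors (trimmed mean of M values, which rescale each library to the bulk of its genes) the median of all genes was 0.01 and that of the 10 genes -0.48, and 8 of the 10 fell. That scaling changed the split of all genes called from 5753 higher and 2744 lower to 3842 higher and 3895 lower.

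**Figure D1:**
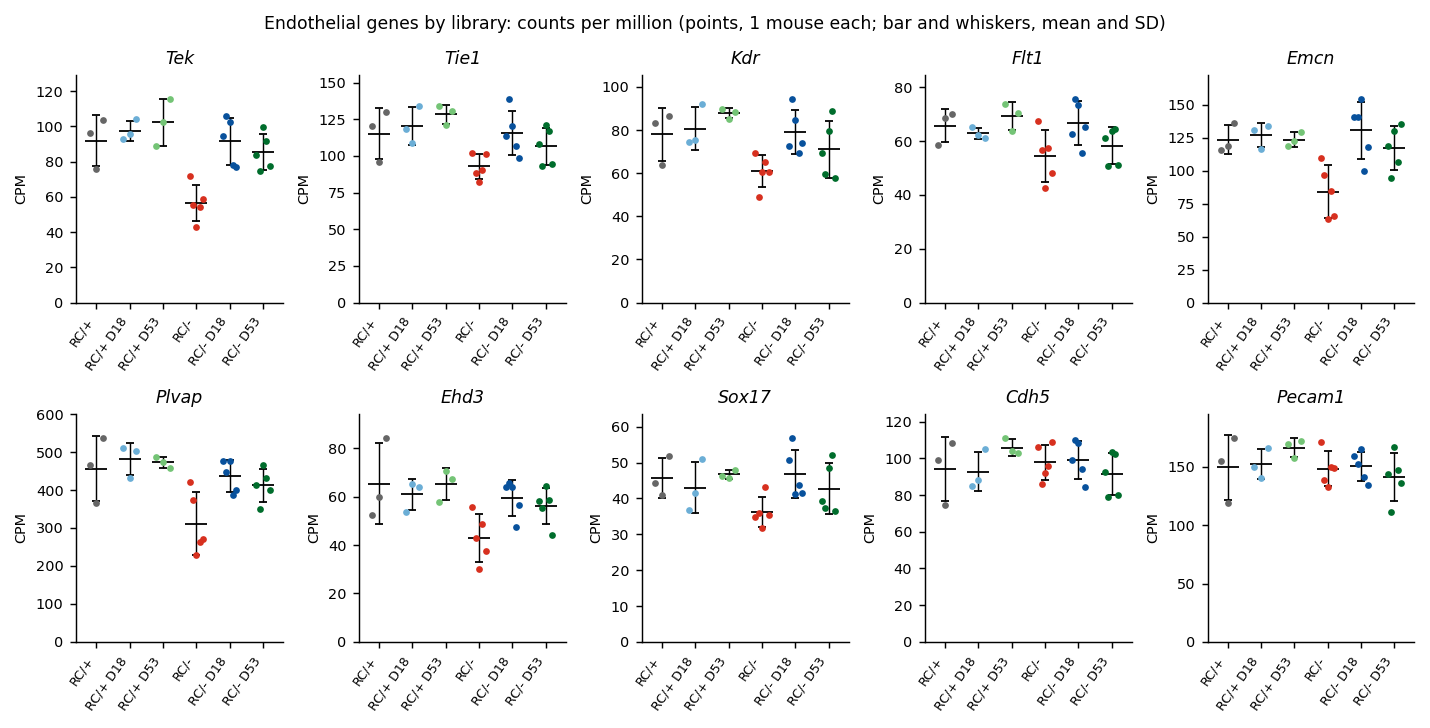
Level of each endothelial gene in CPM (vertical axes, starting at 0) in the 24 kidneys by group, with 1 point per mouse and the mean and SD as a bar with whiskers. RC/- points of Tek (42.7 to 71.6 CPM) lie below all other groups, whereas those of Cdh5 (85.9 to 109 CPM) and Pecam1 (133 to 172 CPM) lie among them.

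The angiopoietin receptor Tek (ENSMUSG00000006386, GRCm38 chromosome 4, 94739289 to 94874976, plus strand) was at 75.7, 96.4 and 103 CPM in the RC/+ kidneys. The 5 RC/- kidneys had 42.7, 54.4, 55.6, 58.5 and 71.6 CPM, all below every RC/+ kidney. The fitted log2 fold change was -0.71 (SE 0.139, adjusted p = 0.000264). Tie1 (ENSMUSG00000033191, chromosome 4, 118471191 to 118490061, minus strand), which modulates signalling by Tek, had 95.6, 120.4 and 129.8 CPM in RC/+. RC/- kidneys had 82.2, 88.1, 90.3, 102 and 102 CPM, and 2 of them exceeded the lowest RC/+ kidney. It fell by 0.31 on the log2 scale (SE 0.113, adjusted p = 0.0358). Tek and Emcn were the 2 of the 10 genes whose groups did not overlap, where 11.6% of all genes tested were separated with RC/- lower.

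The VEGF receptors lie on the minus strand of chromosome 5. Kdr (ENSMUSG00000062960, 75932827 to 75978458), the main signalling receptor for VEGF-A, was at 64.0, 83.4 and 86.6 CPM in RC/+. RC/- kidneys had 49.1, 60.7, 60.7, 65.2 and 69.2 CPM, so that the groups overlapped through 1 low RC/+ kidney, and the log2 fold change was -0.35 (SE 0.135, adjusted p = 0.0426). Flt1 (ENSMUSG00000029648, 147561604 to 147726011), which binds VEGF-A tightly and signals weakly, was at 58.7, 68.5 and 70.3 CPM in RC/+ and at 42.7, 48.0, 56.8, 57.6 and 67.5 CPM in RC/-. Of these, 4 of 5 RC/- kidneys lay below all RC/+ kidneys. Its log2 fold change of -0.28 (SE 0.122, adjusted p = 0.0689) did not pass, and with TMM factors it was -0.42 (adjusted p = 0.00717). Counts per gene do not separate the membrane-bound from the soluble form of Flt1.

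Of the capillary genes, Emcn (ENSMUSG00000054690, chromosome 3, 137341067 to 137432185, plus strand) encodes endomucin, a sialomucin on capillary and venous endothelium. It was at 116, 118 and 136 CPM in RC/+ and at 63.5, 65.6, 84.7, 97.1 and 109.8 CPM in RC/-, with no overlap. The log2 fold change was -0.58 (SE 0.153, adjusted p = 0.00384). Plvap (ENSMUSG00000034845, chromosome 8, 71497765 to 71511752, minus strand) was at 367, 465 and 536 CPM in RC/+. RC/- kidneys had 228, 262, 272, 374 and 422 CPM, of which 3 lay below all RC/+ kidneys, and the log2 fold change was -0.57 (SE 0.150, adjusted p = 0.00381). Ehd3 (ENSMUSG00000024065, chromosome 17, 73804134 to 73832094, plus strand), an endocytic protein that in the kidney marks glomerular endothelium, was at 52.3, 59.7 and 84.1 CPM in RC/+. It was at 29.9, 37.7, 42.8, 48.5 and 55.7 CPM in RC/-, with overlap through 1 kidney (log2 fold change -0.61, SE 0.165, adjusted p = 0.00508).

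Sox17 (ENSMUSG00000025902, chromosome 1, 4490931 to 4497354, minus strand), a transcription factor of arterial endothelium, was at 41.0, 44.3 and 51.7 CPM in RC/+. RC/- kidneys had 31.9, 34.8, 35.3, 36.0 and 43.1 CPM, 4 of 5 below all RC/+ kidneys, and the log2 fold change was -0.33 (SE 0.130, adjusted p = 0.0451). Of its exon bases, 16.8% are shared with Gm37587 on the opposite strand, and whether the counting used strand is not stated. The other 9 genes share no exon bases with another annotated gene.

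The junction genes gave other values. Cdh5 (ENSMUSG00000031871, chromosome 8, 104101625 to 104144511, plus strand), VE-cadherin of the adherens junctions, was at 74.6, 99.2 and 109 CPM in RC/+ and at 85.9, 92.1, 96.1, 106 and 109 CPM in RC/-. The RC/- kidneys thus lay among the RC/+ kidneys, and the log2 fold change was 0.07 (95% confidence interval -0.18 to 0.31, adjusted p = 0.700). Pecam1 (ENSMUSG00000020717, chromosome 11, 106654217 to 106750628, minus strand), CD31, which leukocytes and platelets also carry, was at 119, 155 and 174 CPM in RC/+. It was at 133, 139, 149, 150.2 and 172 CPM in RC/-, also within the RC/+ range, and the log2 fold change was 0.0022 (95% confidence interval -0.24 to 0.24, adjusted p = 0.991). With TMM factors these values were -0.07 (adjusted p = 0.630) for Cdh5 and -0.14 (adjusted p = 0.339) for Pecam1, so their sign depends on the scaling.

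**Figure D2:**
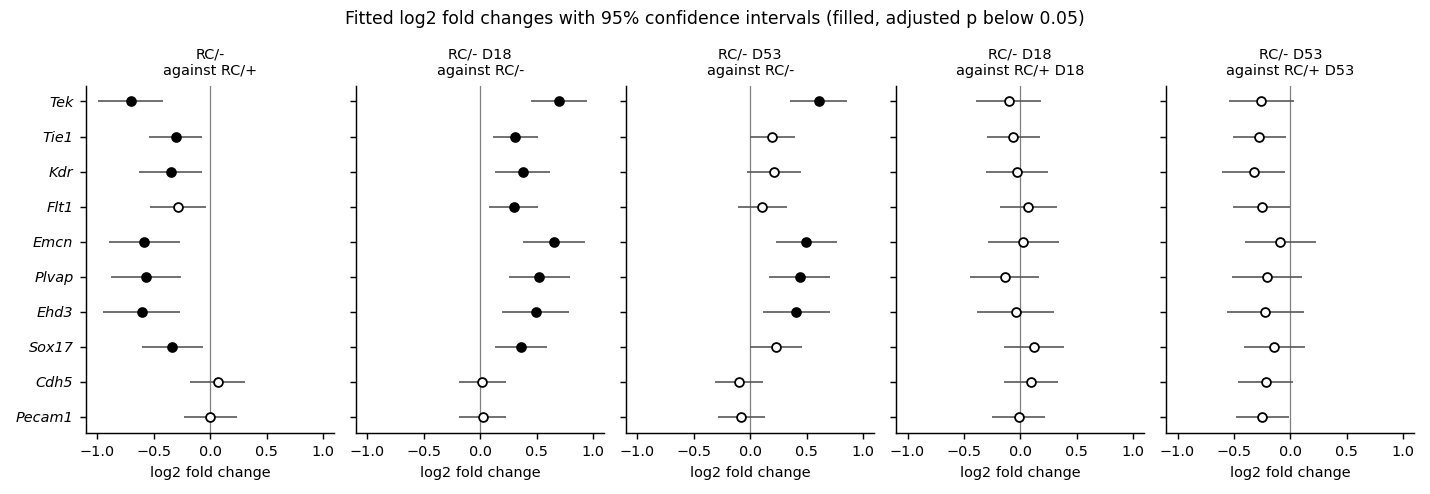
Fitted log2 fold changes (points; horizontal axes) of the 10 endothelial genes with 95% confidence intervals (lines) in 5 comparisons, filled where the adjusted p was below 0.05. Filled points number 7 on the left of 0 in RC/- against RC/+, 8 on the right in RC/- D18 against RC/-, 4 on the right in RC/- D53 against RC/- and 0 within either edited line.

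Calls for Tek, Emcn and Plvap in this comparison held in each of the 8 fits that left out 1 library, with adjusted p values of at most 0.00442, 0.0302 and 0.0450. Other calls depended on single libraries: without RC/+ replicate 6 the adjusted p was 0.195 for Kdr, 0.226 for Sox17, 0.212 for Tie1 and 0.0766 for Ehd3, and 3 genes remained called, while without RC/- replicate 14 or 15 there were 4 in each fit. Kdr also lost its call without RC/+ replicate 4 (0.156) and RC/- replicates 14 (0.109), 15 (0.0606) and 17 (0.0614). Sox17 did so without RC/+ replicate 4 (0.0800) and RC/- replicates 13 (0.0723), 14 (0.0612), 15 (0.100) and 17 (0.0713), and Tie1 without RC/+ replicate 4 (0.127) and RC/- replicates 14 (0.0625), 15 (0.0849) and 16 (0.0581). Flt1, which did not pass, did so without RC/+ replicate 4 (0.0468) and without RC/- replicate 13 (0.0156). Within RC/-, replicate 15 was the lowest of the 5 kidneys for 8 of the 10 genes, and replicate 13 the highest for 8.

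Against unedited RC/- kidneys, the edited ones address what changes with the deletion in the cystic genotype. In RC/- D18, 8 of the 10 endothelial genes rose and 0 fell, where 14.3% of all genes tested were higher and 26.9% lower. Tek rose most, to 1.62 times its RC/- level, followed by Emcn (1.57 times), Plvap (1.44 times) and Ehd3 (1.41 times). Kdr, Sox17, Tie1 and Flt1 rose to between 1.23 and 1.30 times. In RC/- D53, 4 of the 10 rose and 0 fell, where 11.3% of all genes were higher and 18.9% lower, and these were Tek (1.52 times), Emcn (1.41 times), Plvap (1.35 times) and Ehd3 (1.33 times). Cdh5 and Pecam1 passed in neither line. These comparisons use the same RC/- libraries as each other and as the comparison with RC/+, so a low value in RC/- enters all 3. The median log2 fold change of the 10 genes was 0.37 in D18 and 0.22 in D53, beside -0.10 and -0.08 over all genes.

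Tek was at 76.7, 78.1, 94.4, 102 and 106 CPM in RC/- D18, and each of these kidneys was above every RC/- kidney. The log2 fold change was 0.70 (SE 0.121, adjusted p = 4.94e-05). RC/- D53 kidneys had 74.6, 77.3, 83.8, 91.7 and 99.7 CPM, also all above RC/- (log2 fold change 0.61, SE 0.121, adjusted p = 0.000425). Kdr in RC/- D18 was at 69.6, 72.6, 74.2, 84.8 and 94.4 CPM, likewise without overlap (log2 fold change 0.38, SE 0.117, adjusted p = 0.0118). In RC/- D53 it was at 58.0, 59.5, 69.2, 79.5 and 88.8 CPM, where 2 kidneys lay within the RC/- range, and the log2 fold change was 0.21 (SE 0.117, adjusted p = 0.191). Separation from RC/- with the edited kidneys higher was thus seen for 2 of the 10 genes in D18, where 9.01% of all genes showed it, and for 1 in D53, where 6.98% did.

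Emcn was at 99.8, 118, 140.5, 141 and 154 CPM in RC/- D18 and at 94.8, 106, 119, 130.1 and 136 CPM in RC/- D53. Of these, 4 of 5 and 3 of 5 lay above the RC/- range, and the log2 fold change was 0.65 in D18 (SE 0.133, adjusted p = 0.000326) and 0.50 in D53 (SE 0.133, adjusted p = 0.00562). Plvap was at 387, 400.5, 448, 475.8 and 477 CPM in RC/- D18 and at 349.6, 399.5, 414, 433 and 466 CPM in RC/- D53. Of these, 2 of the D18 and 3 of the D53 kidneys lay within the RC/- range, and the log2 fold change was 0.52 in D18 (adjusted p = 0.00208) and 0.44 in D53 (adjusted p = 0.0122). Ehd3 was at 47.5, 56.5, 63.9, 63.9 and 65.5 CPM in RC/- D18 and at 44.2, 55.4, 58.3, 58.4 and 64.5 CPM in RC/- D53, with 1 and 2 kidneys within the RC/- range. Its log2 fold change was 0.49 in D18 (adjusted p = 0.00760) and 0.41 in D53 (adjusted p = 0.0327).

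Tie1 was at 98.5, 107, 113, 120.3 and 139 CPM in RC/- D18 (log2 fold change 0.31, adjusted p = 0.0128), and 4 of these kidneys lay above RC/-. In RC/- D53 it was at 92.8, 94.4, 108, 117 and 121 CPM (log2 fold change 0.20, adjusted p = 0.140). Flt1, at 55.8, 62.6, 65.3, 73.6 and 75.7 CPM in RC/- D18 and 50.6, 51.3, 61.3, 63.7 and 64.6 CPM in RC/- D53, passed in D18 (log2 fold change 0.30, adjusted p = 0.0261) and not in D53 (0.11, adjusted p = 0.496). Sox17 was similar, with 41.2 to 56.8 CPM in RC/- D18 (log2 fold change 0.36, adjusted p = 0.0111) and 36.4 to 52.2 CPM in RC/- D53 (0.23, adjusted p = 0.131). Cdh5 was at 84.3 to 110.0 CPM and 78.9 to 103 CPM, with log2 fold changes of 0.02 (95% confidence interval -0.19 to 0.23) and -0.10 (-0.31 to 0.11). Pecam1 was at 134 to 165 CPM and 111 to 167 CPM, with log2 fold changes of 0.02 (-0.18 to 0.23) and -0.08 (-0.28 to 0.13). In both lines the junction genes spanned about the range they had in RC/-.

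With libraries 20 to 27 left out, which leaves RC/- D18 replicates 18 and 19, 7 of the 10 genes rose, with Tek at 0.84 (adjusted p = 0.000715), Emcn at 0.77 (adjusted p = 0.00176) and Flt1 at 0.35 (adjusted p = 0.0657) on the log2 scale. With membership of these libraries as a covariate, 2 genes rose in D53, Tek at 0.84 (adjusted p = 0.0140) and Sox17 at 0.58 (adjusted p = 0.0495). Emcn, Plvap and Ehd3 had adjusted p values of 0.0624, 0.132 and 0.132 at larger fold changes than without the covariate. The covariate is set only by RC/- D18 replicates 18 and 19 against 20 to 22. Their difference is therefore carried into these D53 values. Sox17 was at 50.8 and 56.8 CPM in RC/- D18 replicates 18 and 19, and at 41.2, 43.8 and 41.6 CPM in replicates 20 to 22. Shares of all genes passing in the fits of this paragraph are not given. Skeletal muscle transcripts were high only in libraries 20 to 27, all of them edited RC/- kidneys, and their part in these results was not tested beyond those fits. In single-library terms, Flt1 in D18 lost its call without RC/- replicates 15 (0.102) or 17 (0.0744) or RC/- D18 replicates 19 (0.0756) or 20 (0.0694). Ehd3 in D53 lost it without RC/- replicates 15 (0.123) or 17 (0.0801) or RC/- D53 replicates 23 (0.0661), 24 (0.0526), 25 (0.0847) or 26 (0.0660).

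In the RC/+ kidneys, where the deletion is present without Cre, 0 of the 10 genes passed in D18 or D53 by limma, where 0.00443% and 0% of all genes did. The counts were also 0 in both at an unadjusted p below 0.05, by edgeR and by DESeq2. Log2 fold changes ran from -0.09 to 0.10 in RC/+ D18 against RC/+ and from 0.0021 to 0.19 in RC/+ D53 against RC/+. Tek was at 93.0, 95.4 and 104 CPM in RC/+ D18 and at 88.7, 102 and 116 CPM in RC/+ D53, overlapping RC/+. With 3 mice a group the 95% confidence intervals were wide, for Tek -0.23 to 0.42 in D18 and -0.16 to 0.48 in D53.

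Within each edited line, RC/- against RC/+ kidneys ask which cystic difference remains, and share no library with the unedited groups. In D18, 0 of the 10 genes passed by limma (0 at an unadjusted p below 0.05), where 0.266% of all genes did. Their log2 fold changes ran from -0.14 for Plvap to 0.12 for Sox17, and that of Tek was -0.10 (95% confidence interval -0.39 to 0.18). In D53, 0 of the 10 passed (4 at an unadjusted p below 0.05), where 2.6% of all genes did. All 10 values were negative there, from -0.32 for Kdr to -0.09 for Emcn, with Cdh5 at -0.22 and Pecam1 at -0.25 (adjusted p = 0.442 and 0.345). Tie1 was the 1 gene whose RC/- D53 kidneys all lay below the RC/+ D53 kidneys, as 3.45% of all genes did. By edgeR and by DESeq2 the count was also 0 in either line, as it was by limma without libraries 20 to 27 in D18 and with their membership as a covariate in D53.

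Whether the cystic difference itself was unequal between lines was tested by interaction contrasts. For D18 against the unedited line 1 of the 10 genes passed, Tek, with a difference of log2 fold changes of 0.60 (SE 0.197, adjusted p = 0.0360), where 17.1% of all genes passed. Emcn had 0.61 (adjusted p = 0.0540), Ehd3 0.57 (adjusted p = 0.0994), and Cdh5 0.03 (adjusted p = 0.936). With 1 library left out at a time Tek lost this call in 9 of 16 fits, namely without RC/+ replicates 4 or 6, RC/+ D18 replicates 7 or 8, RC/- replicates 15 or 16, or RC/- D18 replicates 18, 19 or 20, with adjusted p values of at most 0.111. For D53, 0 passed by limma (2 at an unadjusted p below 0.05, 1 by edgeR and 2 by DESeq2), where 11.3% of all genes did, with Emcn at 0.50 (adjusted p = 0.146) and Tek at 0.45 (adjusted p = 0.149). Without libraries 20 to 27, 3 genes passed for D18, with Tek at 0.74 (adjusted p = 0.0396), and with their membership as a covariate 0 passed for D53. The shares of all genes in those fits are not given. With TMM factors 4 genes passed for D18 (Tek, Emcn, Ehd3 and Sox17), where 1881 of all genes passed with a positive and 1769 with a negative difference. Tek also passed for D53 with TMM factors (adjusted p = 0.0435), where 1470 of all genes passed with a positive and 973 with a negative difference. RC/- D53 against RC/- D18 called 0 of the 10 genes by limma (0 at an unadjusted p below 0.05, by edgeR or by DESeq2), where 0.266% of all genes passed. All 10 log2 fold changes of that comparison were negative, from -0.19 for Flt1 to -0.08 for Ehd3.

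The ratio of each gene to Cdh5 within a library does not depend on how the library is scaled. Cdh5 was taken as the reference with its values in these kidneys known, so the ratios are given as a description with no test. In RC/+ the log2 ratio of Tek to Cdh5 was -0.03 ± 0.05 (SD, n = 3), and in RC/- it was -0.80 ± 0.22 (n = 5). It was -0.12 ± 0.09 among RC/- D18 kidneys and -0.10 ± 0.05 among RC/- D53 kidneys. Every RC/- kidney thus had less Tek per Cdh5 than any kidney of these other groups. The log2 ratio of Emcn to Cdh5 averaged 0.41 ± 0.23 in RC/+ and -0.24 ± 0.38 in RC/-, against 0.39 ± 0.18 for RC/- D18 and 0.36 ± 0.26 for RC/- D53. For Plvap the means were 2.28, 1.64, 2.14 and 2.18 in the same order, and for Ehd3 -0.54, -1.21, -0.74 and -0.70. In these 3 genes single RC/- kidneys lay within the range of the edited kidneys. The Pecam1 ratio had means from 0.60 to 0.67 in these 4 groups.

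In the RC/- D18 kidneys outside libraries 20 to 27 (replicates 18 and 19), the mean log2 ratio to Cdh5 was -0.06 for Tek, 0.43 for Emcn, 2.15 for Plvap and -0.69 for Ehd3. In replicates 20 to 22 it was -0.16, 0.36, 2.14 and -0.77, so both sets lay above the RC/- means. All RC/- D53 kidneys are in libraries 20 to 27, and their ratios have no such comparison. Within the D18 line the mean difference of the Tek ratio between RC/- and RC/+ kidneys was -0.20, and within D53 it was -0.04. The RC/+ D18 mean was 0.08, and all RC/- D18 kidneys (-0.27 to -0.06) lay below all RC/+ D18 kidneys (-0.01 to 0.13). In D53 the RC/- kidneys (-0.16 to -0.05) lay within the RC/+ range (-0.32 to 0.17).

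**Figure D3:**
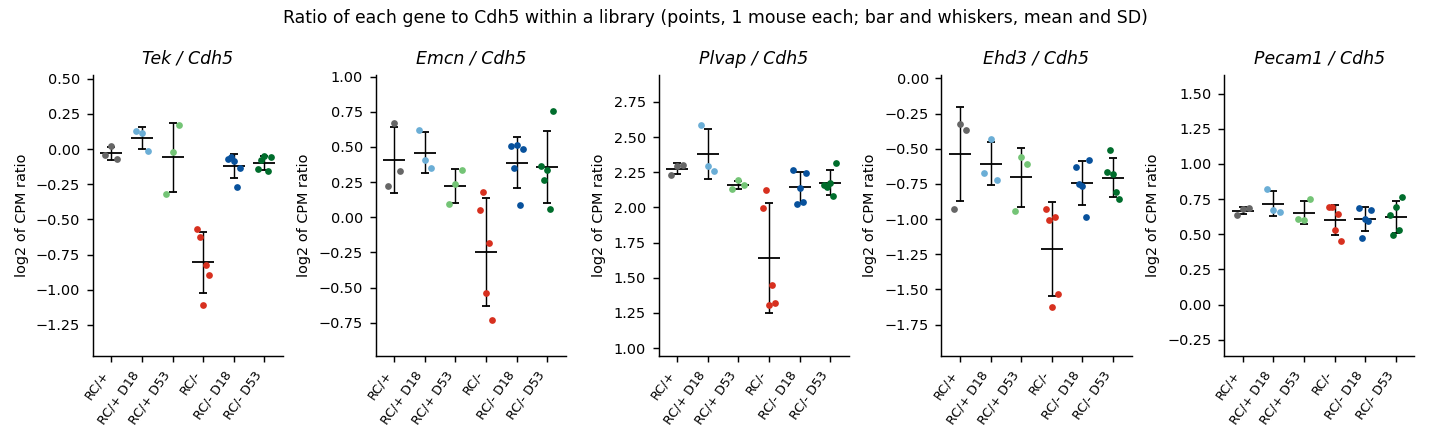
Log2 of the ratio of CPM of 5 genes to CPM of Cdh5 within each kidney (vertical axes, all 2 log2 units high, not starting at 0), with 1 point per mouse and the mean and SD as a bar with whiskers. All RC/- kidneys lie below the other groups for Tek (mean -0.80), whereas for Emcn (-0.24), Plvap (1.64) and Ehd3 (-1.21) the RC/- mean is the lowest with single kidneys overlapping other groups.

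Other genes of endothelium were described from lists. The median log2 fold change of 20 further pan-endothelial genes in RC/- against RC/+ was -0.06, beside 0.14 over all genes. Of the 20, 2 rose and 0 fell, where 25.5% of all genes were higher and 12.2% lower. Those were Ecscr, a surface protein of endothelial cells, with means of 9.68 ± 1.56 CPM in 3 RC/+ and 21.2 ± 1.80 CPM in 5 RC/- kidneys (log2 fold change 1.13, adjusted p = 2.32e-07), and the ETS factor Fli1 (0.42, adjusted p = 0.0316, and 0.115 with TMM factors), which leukocytes also express. With TMM factors 1 rose and 7 fell, where 3842 of all genes were higher and 3895 lower, and the median was -0.20. In RC/- D18 against RC/- 2 rose and 2 fell, beside 14.3% and 26.9% of all genes. Among them were Ecscr at -0.98, Fli1 at -0.42 and Mmrn2, a matrix protein of vessel walls, at 0.33. In RC/- D53 against RC/- 0 rose and 1 fell (Ecscr, -0.71), beside 11.3% and 18.9% of all genes. Without libraries 20 to 27 the D18 counts were 3 and 1, and with them as a covariate the D53 counts were 0 and 1. With TMM factors they were 4 and 2 in D18, where 4442 of all genes were higher and 4398 lower. In D53 they were 1 and 1 with TMM factors, where 3378 of all genes were higher and 2962 lower. Shares of all genes without libraries 20 to 27, or with them as a covariate, are not given.

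Among 12 VEGF and angiopoietin ligands and co-receptors, 3 rose and 3 fell in RC/- against RC/+, beside the 25.5% and 12.2% of all genes. With TMM factors 3 rose and 5 fell, where 3842 of all genes were higher and 3895 lower. Angpt1, the activating ligand of Tek, averaged 41.0 ± 1.45 CPM (SD) over the RC/+ and 22.03 ± 1.81 CPM over the RC/- kidneys and fell by 0.90 on the log2 scale (adjusted p = 6.19e-07). Angpt2, its context-dependent antagonist, fell from 103 ± 9.96 to 52.1 ± 21.5 CPM (-1.08, adjusted p = 0.000217), and Vegfa, the ligand of Kdr and Flt1, from 361 ± 13.5 to 279 ± 46.2 CPM (-0.39, adjusted p = 0.00475). Pgf, a ligand of Flt1, rose from a mean of 1.26 to 3.13 CPM (1.19, adjusted p = 0.00230), as did the lymphangiogenic ligand Vegfd (0.61, adjusted p = 0.0104) and the co-receptor Nrp2 (0.49, adjusted p = 0.00538). Vegfb, Vegfc and Angpt4 had log2 fold changes of -0.12, -0.17 and 0.76 and did not pass. The list's median was -0.07.

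In RC/- D18 against RC/-, 4 of these 12 genes rose and 3 fell, beside 14.3% and 26.9% of all genes, and in RC/- D53 4 rose and 2 fell, beside 11.3% and 18.9%. With TMM factors the counts were 6 and 2 in D18, where 4442 of all genes were higher and 4398 lower. They were 4 and 2 in D53, where 3378 of all genes were higher and 2962 lower. Without libraries 20 to 27 they were 3 and 1 in D18, and with these as a covariate 2 and 0 in D53. The shares of all genes in these last 2 fits are not given. Angpt1 rose in both (0.67 and 0.75, adjusted p = 4.22e-06 and 1.88e-06), as did Angpt2 (1.002 and 0.77, adjusted p = 8.74e-05 and 0.00211) and Vegfa (0.46 and 0.27, adjusted p = 0.000214 and 0.0271). The mean of Angpt1 was 35.2 ± 4.46 CPM in the D18 and 37.2 ± 3.43 CPM in the D53 kidneys. Pgf fell in both (-0.78 and -0.91). Within the D18 line 0 of the 12 passed, and within D53 1 did, Vegfb at 0.30 (adjusted p = 0.0327). Of the exon bases of Angpt1, 14.2% are shared with a gene on the opposite strand.

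Arterial genes were mixed, with 1 of 11 higher and 3 lower in RC/- against RC/+ and a median of 0.07. The counts of this paragraph stand beside 25.5% of all genes higher and 12.2% lower. Efnb2, ephrin-B2, which epithelia also express, rose (1.21, adjusted p = 1.13e-08), while Cxcl12, a chemokine of arterial endothelium and stroma, fell (-0.83, adjusted p = 1.50e-06), as did Sema3g (-0.67, adjusted p = 0.000298). Of 5 glomerular endothelial genes 2 fell, Sost (-2.24, adjusted p = 0.000659) and the transcription factor Gata5 (-1.52, adjusted p = 0.000331), with 0 to 4 counts of Sost and 6 to 10 of Gata5 in an RC/- library, and the median was -0.07. Of 7 venous and leukocyte adhesion genes 3 rose and 0 fell, with a median of 0.67. These were the adhesion molecule Icam1 (1.52, adjusted p = 3.70e-08), Selp (1.74, adjusted p = 0.00466, 4 to 12 counts in an RC/+ and 20 to 47 in an RC/- library) and Ackr1 (adjusted p = 0.000588, 0 to 1 and 4 to 15 counts). Shared exon bases with other annotated genes were 11.7% for Icam1, 14.1% for Selp and 25.7% for Ackr1. Of 7 lymphatic genes 6 were tested (Ccl21a had 0 counts in all libraries), of which Pdpn (2.13) and Lyve1 (2.09) rose and Prox1 fell (-1.05). Podocytes also express Pdpn, and macrophages Lyve1.

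In the edited RC/- kidneys the same genes had fold changes of the other sign, against the shared RC/- libraries. Cxcl12 was at 0.98 in D18 and 0.86 in D53, Sema3g at 0.60 and 0.52, and Efnb2 at -0.97 and -0.70, all past the threshold. For the glomerular genes Sost had 2.24 and 1.79, and Gata5 1.41 and 0.99, also past it. Icam1 fell in both (-1.24 and -1.08). Of the 5 glomerular genes 2 rose and 2 fell in D18, and 2 rose and 0 fell in D53, while with TMM factors or without libraries 20 to 27 the counts in D18 were 2 and 0. With TMM factors 4442 of all genes were higher and 4398 lower in D18. The counts were 2 higher and 1 lower of 11 arterial genes in D18 and 2 and 2 in D53, and 0 higher and 4 lower of 7 venous and adhesion genes in D18 and 0 and 3 in D53. Of the 6 lymphatic genes tested, 2 rose and 3 fell in D18, and 1 rose and 3 fell in D53. The counts of the main fit stand beside 14.3% of all genes higher and 26.9% lower in D18 and 11.3% and 18.9% in D53. Without libraries 20 to 27 the D18 counts were 2 higher and 2 lower for arterial, 1 and 2 for venous and adhesion, and 1 and 3 for lymphatic genes. With these libraries as a covariate the D53 counts were 2 and 1, 1 and 1, and 0 and 2 in the same order, and 2 and 0 for glomerular genes. Shares of all genes without these libraries, or with the covariate, are not given.

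**Figure D4:**
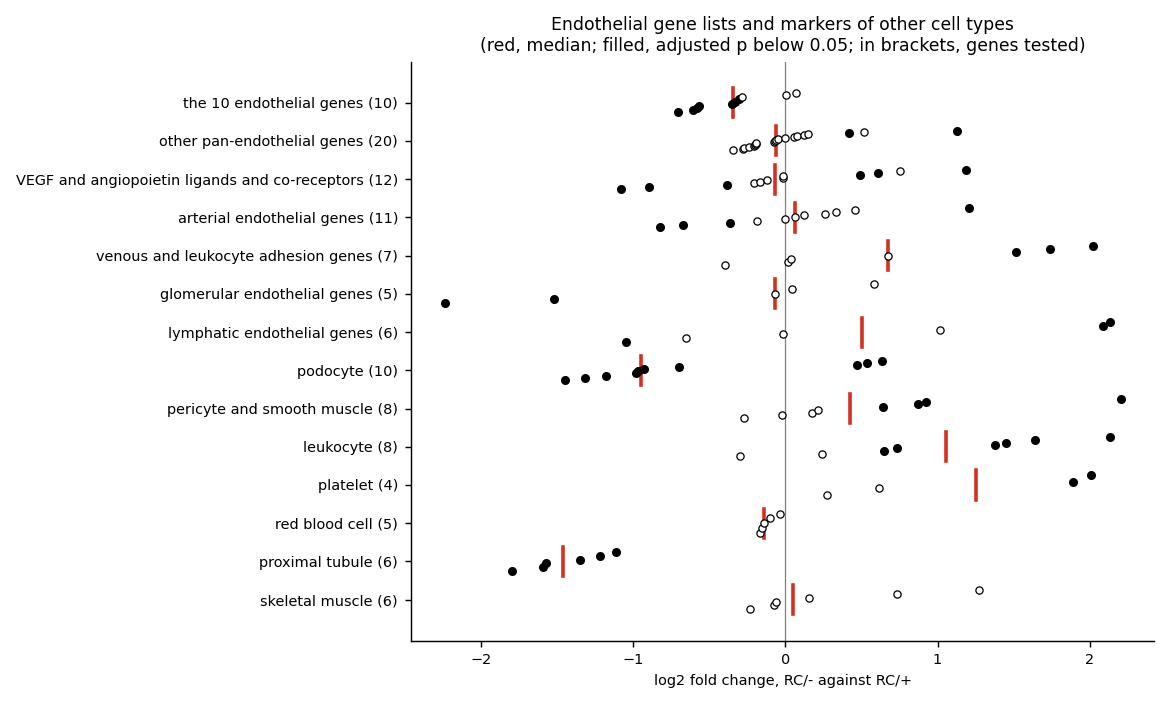
Log2 fold change in RC/- against RC/+ (horizontal axis) of each gene (points, filled where the adjusted p was below 0.05) in the 10 endothelial genes, 6 further endothelial lists and markers of 7 other cell types, with the median of each in red. Medians were -0.34 for the 10 genes, -0.06 for other pan-endothelial genes, -0.95 for podocytes, 1.06 for leukocytes and -1.46 for the proximal tubule.

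Markers of other cell types moved alongside these differences, and their part in them was not tested. Their counts in RC/- against RC/+ stand beside 25.5% of all genes higher and 12.2% lower. All 6 proximal tubule markers fell in RC/- (median -1.46), and their summed level was 5930 to 6386 CPM in RC/+ and 1233 to 3050 CPM in RC/-. Of 10 podocyte markers, 7 fell and 3 rose (median -0.95), with summed levels of 1905 to 1990 and 1902 to 2544 CPM. Of 8 leukocyte markers 6 rose and 0 fell (median 1.06), with summed levels of 164 to 185 CPM in RC/+ and 329 to 545 CPM in RC/-. Among platelet markers, 2 of the 4 tested of 5 rose (Gp1bb had 0 counts in all libraries), at 13.4 to 14.6 CPM summed in RC/+ and 24.9 to 31.02 CPM in RC/-. Of 8 pericyte and smooth muscle markers 4 rose and 0 fell, from 470.5 to 557 CPM summed up to 731 to 1252 CPM. Of 5 red blood cell markers 0 passed by limma, at 258 to 472 CPM and 234 to 434 CPM summed. All 5 rose in RC/- D53 against RC/- (419 to 1279.7 CPM), where 11.3% of all genes were higher. Podocyte, leukocyte and proximal tubule levels in RC/- D18 were 1624 to 2379, 201 to 224 and 5272 to 7395 CPM, and in RC/- D53 2168 to 2467, 213 to 285 and 4295 to 5451 CPM. Within RC/-, replicate 15, lowest for most of the endothelial genes, had 2529 CPM of proximal tubule, 419 CPM of leukocyte and 731 CPM of pericyte and smooth muscle markers. Replicate 13, highest for 8 of the 10 genes, had 2789, 352 and 1252 CPM in the same order. Replicate 14, whose 10 genes summed to 1023 CPM, the next highest sum after replicate 13, had 3050, 329 and 875 CPM.

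The genes most like Cdh5 in their pattern were taken over the 24 libraries from the 15115 genes whose log2 CPM averaged 0 or more. The highest Pearson correlations among genes outside the 10 were those of Zeb1 (0.841), Adgrl4 (0.830) and Arrb1 (0.8292), followed by Sash1, Fam171a1, Kif26a, Arap3, Sh2b3, Sipa1 and Ets1 (0.780 to 0.807). After subtraction of each group's mean they were Adgra2 (0.924), Epas1 (0.909), Eml1 (0.906), Ptprm, St6galnac4, Arap3, Egflam, Ankrd50, Kctd20 and Zeb1 (0.863). Within the 10 genes, Pecam1 was the most like Cdh5 over all libraries (0.853) and Emcn the least (0.127). After the group means were removed, the 45 pairs of the 10 genes had correlations from 0.209 (Kdr with Emcn) to 0.931 (Cdh5 with Tie1), with a median of 0.619. These points share a library, its total count and its tissue composition, so the values are a description.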

How the data were processed

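The authors trimmed reads with Trim Galore 0.6.3, aligned them to GRCm38 with STAR 2.5.3a and counted them per gene of Ensembl release 94 with STAR's gene counts, and deposited 1 table of raw counts for the 24 libraries. Which strand column was taken is not given in the sources used here. All 24 sample columns were used and 0 were left over. From these counts CPM was computed here with total counts and a prior of 2, genes whose log2 CPM averaged -3 or more were kept, and limma 3.58.1 with an intensity trend (R 4.3.3) was fitted with 1 mean per group over all libraries, with Benjamini-Hochberg adjustment over all 22570 genes of a comparison, two-sided, at 0.05. The study's methods name limma on log2 CPM, and the design matrix was chosen here. Each library is 1 mouse, so p-values measure the spread between mice, and 39 pairs of libraries of a group all differed beyond sampling noise (chi-square per degree of freedom at least 8.45).

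Ratios to Cdh5 are described, and a planned exact permutation test of them (SciPy 1.17.1) is given with the limits only. Alternatives were TMM and DESeq2 size factors, no filter, a prior of 0.5, sex or libraries 20 to 27 as a covariate, only the groups compared, edgeR 4.0.16, DESeq2 1.42.0 and leaving out each library, and, chosen after seeing the data, libraries 20 to 27 left out or alone. The scripts were tested on simulated data. Coordinates and exon lengths came from GENCODE M21 (GRCm38), which held 54409 of the 54532 gene identifiers. Genes without a symbol (343) held at most 0.0261% of counts. The 10 genes, the gene lists and the tests were chosen with earlier results of these data known. Besides the 10 genes, the text names at most the 3 called genes with the largest fold change per list and comparison, the VEGF and angiopoietin ligands, and the 10 genes most correlated with Cdh5.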

Additional observations from a re-analysis of the deposited data

Results flagged for a closer look

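Tek was flagged because its cystic difference was unequal between the D18 and the unedited line by the interaction contrast of limma, which 17.1% of all genes passed. The difference of log2 fold changes was 0.60 (SE 0.197, adjusted p = 0.0360), from -0.71 in the unedited line to -0.10 in D18. Over the alternatives the adjusted p ranged up to 0.111, reached without RC/+ replicate 6. The limma call was lost in 9 of the 16 fits without 1 library. It was also lost without the filter (adjusted p = 0.0611) and with only the groups compared (adjusted p = 0.0558). Of 30 tests for a library far from the others of its group, over the 10 genes and the 3 groups of 5 mice, 0 were past Dixon's limit, where chance gives about 1 in 20.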

How the results depend on the processing

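No paired analysis was possible because the groups share no replicate numbers. Of the 10 genes, 7 changed in RC/- against RC/+, and against RC/- 8 changed in D18 and 4 in D53. Except where stated above, the counts under other settings are given without the share of all genes in the same fit. Without the filter the first count was 4, and without 1 library it was 3 to 7. With only the groups compared, limma did not call Kdr in RC/- against RC/+ (adjusted p = 0.0503). Nor did it call Flt1 in D18 there (adjusted p = 0.0701). Ehd3 in D53 was not called by limma without the filter (adjusted p = 0.0548) or with only the groups compared (adjusted p = 0.0564). The D53 count was 7 with TMM factors, edgeR and DESeq2 and 2 with libraries 20 to 27 as a covariate. For the D18 interaction, 1 by the main setting, it was 4 with TMM factors, DESeq2 size factors, edgeR and DESeq2, 2 with that covariate, 3 without libraries 20 to 27, 0 without the filter or with only the groups compared, and 0 to 4 without 1 library. For the D53 interaction, 0 by limma, it was 1 with TMM factors and edgeR and 2 with DESeq2. The ratios to Cdh5 past an exact permutation test adjusted over 9, which support nothing since the reference was chosen with its values known, numbered 0 in RC/- against RC/+ (4 with Pecam1 as the reference), 6 in D18 and 7 in D53 (3 to 7 and 3 to 8 without 1 library). The smallest unadjusted p this test can give is 0.0179 in RC/- against RC/+ (56 splits) and 0.00794 in the other comparisons named (252 splits). The 0 therefore cannot be set against the 6 and 7. The sign of the junction genes depended on the setting. Pecam1 in RC/- against RC/+ was -0.14 with TMM factors, -0.13 with DESeq2 size factors, -0.00050 with sex as a covariate, -0.15 with edgeR, -0.14 with DESeq2, and -0.15 to 0.12 without 1 library. Cdh5 there was -0.073 with TMM factors, -0.068 with DESeq2 size factors, -0.085 with edgeR, -0.081 with DESeq2, and -0.092 to 0.18 without 1 library. In D18, leaving out 1 library gave -0.016 to 0.075 for Pecam1 and -0.026 to 0.075 for Cdh5. In D53, Pecam1 was 0.0092 with TMM factors, 0.012 with libraries 20 to 27 as a covariate, 0.011 with edgeR, 0.0038 with DESeq2 and -0.14 to 0.0042 without 1 library, and Cdh5 was 0.034 with that covariate. The cause of these shifts was not tested. Over fold changes of single genes and their ratios to Cdh5, 603 alternative values kept their side of the threshold and direction, 82 lost a call, 18 gained one and 26 changed sign. The tally includes ratio tests that support nothing and genes never called, so it does not measure how stable the calls of the 10 genes were. Libraries 20 to 27 alone gave 0 of 10 genes between D53 and D18 by limma.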
